A study of Mus musculus with 15 samples.

Results

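The myelin genes of mature oligodendrocytes described here are Mbp, Mobp, Mal, Mog, Mag, Cldn11, Opalin, Cnp and Ugt8a. They were chosen by symbol as genes that oligodendrocytes switch on when they wrap axons, and the rule itself uses no measured value, although earlier results of these data were known when it was set. All 9 were found among the 55401 genes of the count files, and all 9 are among the 19536 genes that passed the filter on low counts. The RNA came from the hippocampus of 15 aged female mice, given in the study's methods as 18 to 20 months old. The study's discussion gives an older approximate age where it treats spine density. No age is stated for the RNA samples themselves. The Tg2576 mice (genotype label Tg2576 +/+) overexpress human APP with the Swedish mutation under the prion promoter, and the WT mice (Tg2576 -/-) were their negative littermates. DHA, an omega-3 fatty acid, was given daily by the intragastric route at 450 mg/kg for 5 weeks in sesame oil, and control mice received the same volume of the oil, so that all 15 mice were given sesame oil. The groups WT vehicle, WT DHA and Tg2576 vehicle held 4 mice each and Tg2576 DHA held 3, with 1 library per mouse. Whole hippocampal tissue was sequenced, so fewer oligodendrocytes and less myelin RNA per oligodendrocyte cannot be told apart in any value below.

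Myelin is the stack of membrane that oligodendrocytes wind around axons, and its genes are turned on late in the life of the cell, after it leaves the precursor state. Some of their products compact the membrane (Mbp, Mobp), others form its tight junctions, rafts and lipids (Cldn11, Mal, Ugt8a), and others face the axon, the cytoplasm or the outside of the sheath (Mag, Cnp, Mog, Opalin). The transcription factors SOX10 and MYRF drive many of these genes in the mature cell. In the hippocampus, myelinated axons lie mainly in the alveus, the fimbria and the layers crossed by afferent fibers.

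The DNA just upstream of 4 members, each with a motif described below, is shown. The sequences are from RefSeq on GRCm38.p6, read from 5′ to 3′ on the strand of the gene, and end at or before the first base of the gene in the annotation. They are Mobp at chr9:120149492-120149706 (plus strand), Mag at chr7:30914923-30915172 (minus strand), Cnp at chr11:100574689-100574903 (plus strand) and Mog at chr17:37023399-37023648 (minus strand). Capitals mark the letters ACAAAG or ACAATG (a SOX motif) and CTGGCAC or CTGGTAC (a MYRF motif), searched on both strands.
Mobp: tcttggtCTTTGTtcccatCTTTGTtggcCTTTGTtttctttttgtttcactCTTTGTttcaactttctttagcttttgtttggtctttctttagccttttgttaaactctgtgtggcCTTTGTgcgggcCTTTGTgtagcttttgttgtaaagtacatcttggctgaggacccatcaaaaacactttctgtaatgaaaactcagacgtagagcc
Mag: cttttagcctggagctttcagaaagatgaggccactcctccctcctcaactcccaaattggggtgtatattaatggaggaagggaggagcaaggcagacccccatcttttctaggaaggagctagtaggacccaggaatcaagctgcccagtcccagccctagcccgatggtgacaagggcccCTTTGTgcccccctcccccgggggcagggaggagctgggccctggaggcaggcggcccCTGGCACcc
Cnp: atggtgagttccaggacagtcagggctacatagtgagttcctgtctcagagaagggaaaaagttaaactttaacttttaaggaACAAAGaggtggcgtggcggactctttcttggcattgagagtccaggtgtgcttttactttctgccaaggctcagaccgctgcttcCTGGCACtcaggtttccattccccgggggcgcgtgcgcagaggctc
Mog: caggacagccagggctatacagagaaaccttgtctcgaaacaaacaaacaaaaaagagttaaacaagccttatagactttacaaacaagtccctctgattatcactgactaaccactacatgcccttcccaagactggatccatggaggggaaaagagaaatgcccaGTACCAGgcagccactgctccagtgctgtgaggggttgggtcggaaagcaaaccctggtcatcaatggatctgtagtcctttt

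Windows of 250 bases were searched for 8 of the 9 members, all but Mbp, in 10 windows because Mag has several start sites. The SOX letters were in windows of 4 members, namely Mobp, Mag, Cnp and Opalin. They occur in 25.2% of the 32817 windows of all genes. The Mobp window held the SOX letters 6 times, all as CTTTGT, the reverse complement, between 243 and 115 bases upstream of the RefSeq start. Distances are counted from that start, which for Mobp and Cnp lies 35 bases inside the gene as annotated, so the printed stretch stops 35 bases short of it. The MYRF letters were in windows of 3 members, Mag, Cnp and Mog, and occur in 5.92% of all windows. Members are counted over any of their windows, so these counts are not directly comparable with the shares of windows. Mal, Cldn11 and Ugt8a had neither the SOX nor the MYRF letters. In Mag, CTGGCAC began 9 bases upstream of this start and the SOX letters 67 bases upstream. In Cnp the MYRF letters began 81 bases and the SOX letters 167 bases upstream, and in Mog the MYRF letters, as GTACCAG, began 83 bases upstream. The E-box CAGCTG was in 0 member windows and in 13% of all windows. A match of letters is a description and not a binding site, and these windows were not tested for any factor.

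Library depth ranged from 17372864 to 46596489 counts per mouse (median 25645977), and all libraries were run on 1 lane. Mouse App counts, to which transgene reads can map, were higher in every Tg2576 mouse (2080 to 2790 CPM, counts scaled to library size with TMM factors) than in every WT mouse (1570 to 1790 CPM). Tg2576 vehicle replicate 1 stood apart. It had the lowest depth, and 1077 genes lay more than 1 on the log2 scale from the mean of its group, against 296 to 796 genes in the other 14 mice. For the members, counts of calls, coefficients of variation and correlations that this mouse moved are given with and without it. For the other gene lists, values without it are given only where stated, and some counts of calls there also moved. The choroid plexus genes (8 of 8 tested) varied widely in their summed level, from 90.4 to 3741 CPM in WT mice on vehicle, 62.1 to 5868 in WT mice on DHA, 142 to 3193 in Tg2576 mice on vehicle and 3128 to 5179 in Tg2576 mice on DHA.

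The label was first set against other genes. All 28 other genes of mature oligodendrocytes were detected in every mouse. Pmp2, a fatty acid binding protein of peripheral myelin, had 0 counts in every mouse.

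The levels of the 9 members spanned a wide range. Per kilobase of exon, Mbp (chromosome 18, 82475146 to 82585637, plus strand), which encodes the cytoplasmic protein that compacts the membrane, was highest with a mean over all mice of 453 CPM per kb. Mobp (chromosome 9, 120149707 to 120181484, plus strand), a small basic protein of compact myelin, followed at 142 CPM per kb, and Cnp (chromosome 11, 100574904 to 100591729, plus strand), a phosphodiesterase of the cytoplasmic channels, at 114 CPM per kb. Cldn11 (chromosome 3, 31149920 to 31164324, plus strand), the claudin of myelin tight junctions, had 73.9 CPM per kb. Mag (chromosome 7, 30899176 to 30914873, minus strand), the adhesion protein that faces the axon, had 63.4 CPM per kb, and Mal (chromosome 2, 127633226 to 127656695, minus strand), a raft proteolipid, had 61.3 CPM per kb. Mog (chromosome 17, 37010743 to 37023398, minus strand), a glycoprotein of the outermost layer, had 36.5 CPM per kb. Opalin (chromosome 19, 41061710 to 41077113, minus strand), a sialylated membrane protein of oligodendrocytes, had 10.7 CPM per kb. Ugt8a (chromosome 3, 125865271 to 125938619, minus strand), the transferase that makes galactosylceramide, was lowest at 8.51 CPM per kb.

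The order was steady at the top. Mbp exceeded Mobp, Mobp exceeded Cnp and Cnp exceeded Cldn11 in 15 of 15 mice. Cldn11 was above Mag in 13 mice, Mag above Mal in 8 and Opalin above Ugt8a in 10, so these neighbours were not separated by more than the spread between mice. Mal exceeded Mog and Mog exceeded Opalin in every mouse. The 9 members took 0.434% to 0.711% of all counts in a mouse (median 0.63%), and Mbp alone made up 61.9% to 68.0% of the members' counts. Cnp shares 463 exonic bases (12.7% of its exonic length) with Dnajc7 on the opposite strand, and reads there were left out of both genes because the counting used no strand.

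The spread between mice of a group differed among members. The biological coefficient of variation fitted by edgeR was 12.9% for Mobp, 13.7% for Mal, 14.1% for Mbp, 14.5% for Mag and 15% for both Cldn11 and Cnp. It was 20.8% for Mog, 31.3% for Ugt8a and 44.8% for Opalin, beside a median of 17.7% over all genes tested. Tg2576 vehicle replicate 1 raised the 3 higher values. Without it they were 13.8% for Mog, 16.9% for Ugt8a and 23.3% for Opalin, the other 6 members had 12.5% to 14.5%, and the median over all genes was 16.9%. Opalin lay at the 89.1th percentile of this measure with the mouse and at the 63.6th without it. In WT vehicle mice the spread was small for the abundant members, for example Mobp at 1019 ± 51.5 CPM (SD, n = 4) and Cnp at 466 ± 28.4 CPM (SD, n = 4).

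**Figure D1:**
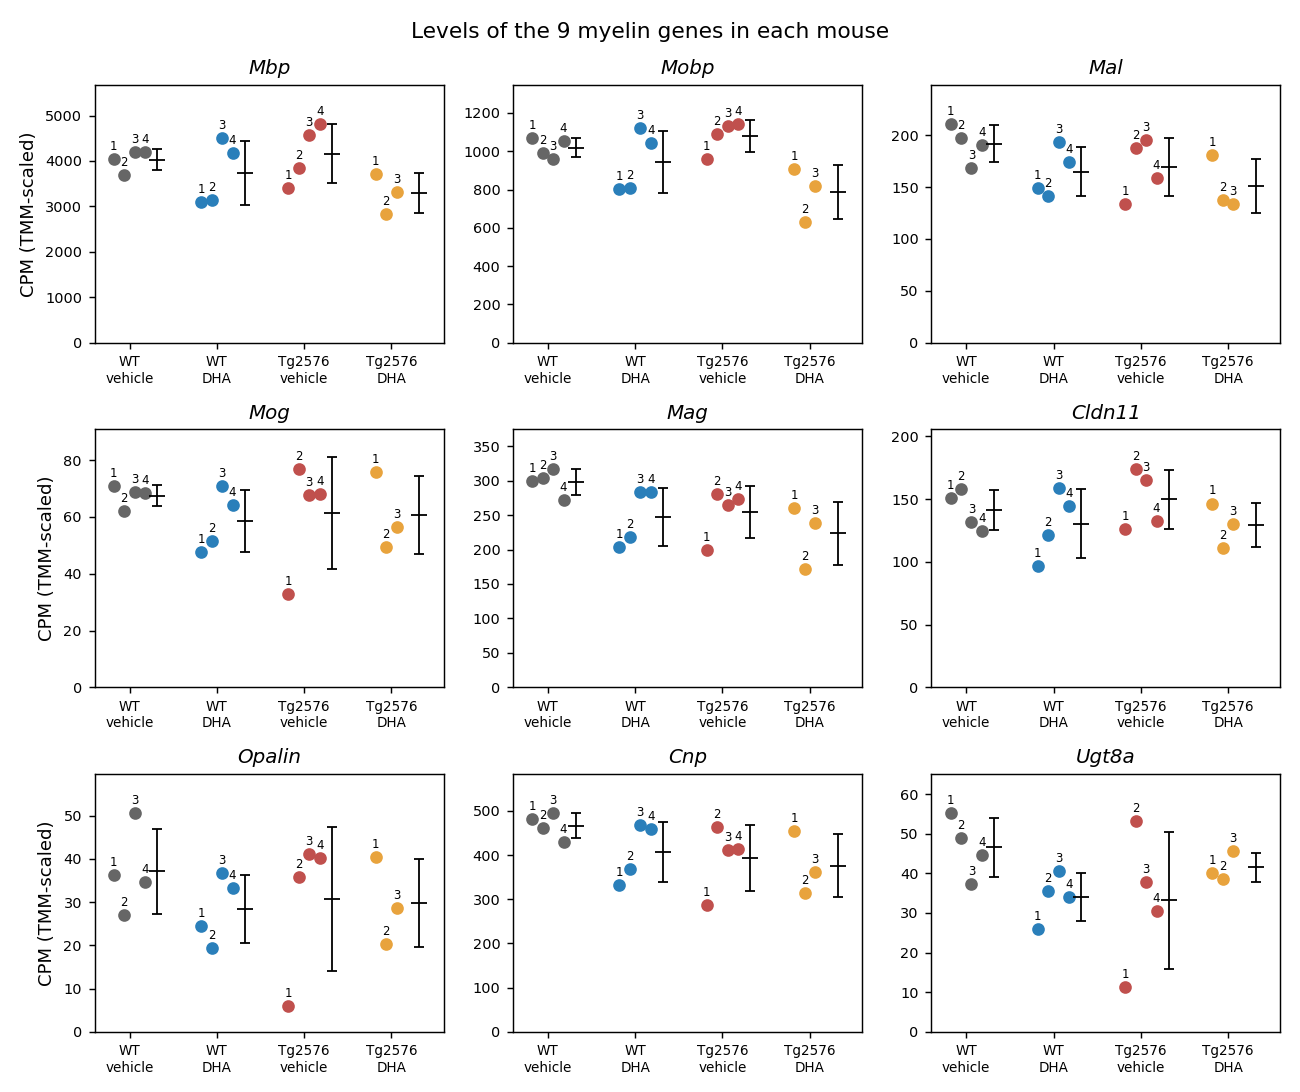
TMM-scaled CPM of each myelin gene (vertical axis, starting at 0) in the mice of the 4 groups (points, numbered by replicate), with the mean and SD of each group at its right. Tg2576 vehicle replicate 1 had 6.02 CPM of Opalin, against 35.8 to 41.1 in the other mice of its group, and the 3 Tg2576 DHA mice were below all Tg2576 vehicle mice for Mobp.

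The comparison of DHA with vehicle in Tg2576 mice asked what DHA changed in the transgenic hippocampus, and it held the only member past the threshold. Mobp was 958, 1089, 1133 and 1141 CPM in the 4 Tg2576 vehicle mice and 909, 633 and 820 CPM in the 3 Tg2576 DHA mice. All 3 DHA mice were below all 4 vehicle mice. The group means were 1080 ± 84.6 CPM (SD, n = 4) with vehicle and 787 ± 141 CPM (SD, n = 3) with DHA. Mobp fell by 0.46 on the log2 scale (standard error 0.132, 95% interval -0.73 to -0.18), with unadjusted p = 0.00293 and adjusted p = 0.999 by edgeR's quasi-likelihood test with Benjamini-Hochberg adjustment. The two-sided exact permutation test gave p = 0.0571, the smallest that 4 mice against 3 allow. Thus 1 of 9 members was called (p under 0.01, the study's threshold), where 0.353% of all genes tested were called, and 1 of 9 did not overlap between the groups, against 3.21% of all genes.

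The Mobp call was lost without Tg2576 DHA replicate 2, its lowest mouse, when the log2 fold change was -0.32 (unadjusted p = 0.0323, adjusted p = 1.0). It passed under the other 24 settings, where the unadjusted p ranged down to 0.000597, and the adjusted p over all 25 ranged from 0.559 to 1.0. The exonic length of a gene was related to its deviation in opposite directions in Tg2576 DHA replicates 1 and 2 (r = -0.246 and 0.219 across genes, which are not independent replicates). With an offset for length, chosen after the data were seen, Mobp had a log2 fold change of -0.47 and unadjusted p = 0.00663 (adjusted p = 0.997). All 3 Tg2576 DHA mice also had high choroid plexus levels. Of the 8 thalamus genes, which mark tissue next to the hippocampus, Prkcd was called lower in the same comparison (-0.69, unadjusted p = 0.000241, adjusted p = 0.999), with 28.7 to 30.6 CPM in DHA and 42.6 to 56.0 CPM in vehicle mice. The summed thalamus genes were 122.4 to 124.6 CPM with DHA and 126.5 to 158.8 CPM with vehicle, while 4 of the 8 had a positive and 4 a negative log2 fold change. The part of either tissue in the Mobp result was not tested.

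Mbp, the most abundant member, was 3405, 3843, 4566 and 4808 CPM in Tg2576 vehicle and 3723, 2843 and 3327 CPM in Tg2576 DHA mice. The groups overlapped only through vehicle replicate 1 and DHA replicate 1. The log2 fold change was -0.33 (standard error 0.144, unadjusted p = 0.033, adjusted p = 0.999, exact permutation p = 0.114), which did not pass. Without Tg2576 vehicle replicate 1 it was -0.42 with unadjusted p = 0.00959 and adjusted p = 0.859, so that 2 of 9 members were then called, against 0.626% of all genes in that fit, and 3 of 9 did not overlap, against 7.62% of all genes.

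The other 7 members were not called between DHA and vehicle in Tg2576 mice. Cldn11 had a log2 fold change of -0.21, Mag of -0.19, Mal of -0.17, Cnp of -0.07, Opalin of -0.06 and Mog of -0.02. Ugt8a alone had a positive value, 0.32 (standard error 0.342, 95% interval -0.42 to 1.05). Its levels were 11.3, 53.2, 37.7 and 30.4 CPM in Tg2576 vehicle mice and 40.1, 38.6 and 45.7 CPM in Tg2576 DHA mice. The DHA mice lay within the vehicle range, which a single low mouse widened, and without that mouse the value was 0.03. The median over the 9 members was -0.17 (all genes -0.00389), and it was -0.29 without Tg2576 vehicle replicate 1.

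In WT mice, all 9 members had a negative log2 fold change with DHA, and none was called (lowest adjusted p 0.863), with 0 members at an unadjusted p under 0.05. The share called among all genes tested was 1.38%. The values ranged from -0.45 to -0.11, with a median of -0.21, where the median of all genes was -0.0135. Mag had the lowest p. Its levels were 300, 304, 317 and 272 CPM in WT vehicle and 203, 219, 283 and 284 CPM in WT DHA mice, with a log2 fold change of -0.27 (standard error 0.14, 95% interval -0.57 to 0.02, unadjusted p = 0.0689, adjusted p = 0.863). The lowest vehicle mouse lay just below the 2 highest DHA mice, so the groups overlapped, and the exact permutation p was 0.0857.

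WT DHA mice split into a low and a high pair. Replicates 1 and 2 had 3105 and 3152 CPM of Mbp, and replicates 3 and 4 had 4496 and 4174 CPM, while the 4 WT vehicle mice had 4037, 3696, 4187 and 4195 CPM. The high pair was thus within or above the vehicle range. The same pairs appeared for Mobp, with 801 and 807 CPM against 1122 and 1042 CPM, and for Mog, with 47.8 and 51.4 CPM against 71.1 and 64.1 CPM. Ugt8a was 55.2, 49.0, 37.3 and 44.7 CPM in WT vehicle and 26.0, 35.4, 40.6 and 34.1 CPM in WT DHA mice (log2 fold change -0.45, standard error 0.318, unadjusted p = 0.178, adjusted p = 0.879, exact permutation p = 0.0571), and 1 DHA mouse reached into the vehicle range. In a fit of only these 2 groups, Ugt8a had unadjusted p = 0.0083 (adjusted p = 0.41) and was the 1 member called, where that fit called 2.39% of all genes. Among all genes tested, 5.02% did not overlap between WT DHA and WT vehicle mice, and 0 members did.

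The comparison of Tg2576 with WT mice under vehicle asked what the transgene changed. No member was called (0 of 9, with 0 at an unadjusted p under 0.05; 3.09% of all genes tested were called), and 0 members were without overlap, against 5.16% of all genes. Of the 9 members, 6 had a negative and 3 a positive log2 fold change, with a median of -0.18. Without Tg2576 vehicle replicate 1 this median was 0.07. Cnp had the lowest p. Its levels were 481, 461, 495 and 429 CPM in WT vehicle and 287, 463, 411 and 414 CPM in Tg2576 vehicle mice. The log2 fold change was -0.24 (95% interval -0.55 to 0.06, unadjusted p = 0.109, adjusted p = 0.572, exact permutation p = 0.0857). Mbp had 0.04 (-0.23 to 0.32) and Mobp 0.08 (-0.17 to 0.34).

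Under DHA, no member was called between Tg2576 and WT mice (0 of 9, with 0 at an unadjusted p under 0.05), where 1.75% of all genes tested were called. The members' groups overlapped in all 9, and 8.56% of all genes did not overlap. Mobp had the lowest p, with a log2 fold change of -0.26 (standard error 0.131, 95% interval -0.54 to 0.02, unadjusted p = 0.0634, adjusted p = 0.737, exact permutation p = 0.343), and the median over the members was -0.11. Tg2576 and WT mice shared the range of Mog, with 75.9, 49.4 and 56.6 CPM in Tg2576 DHA mice beside the WT DHA values above.

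The effect of DHA was not shown to differ between genotypes for any member. The interaction called 0 of 9 members, with 0 at an unadjusted p under 0.05, and 0.829% of all genes tested. Mobp had an interaction of -0.34 on the log2 scale (standard error 0.179, unadjusted p = 0.0703, adjusted p = 0.845), and Ugt8a one of 0.77 (standard error 0.467, 95% interval -0.24 to 1.78, unadjusted p = 0.124, adjusted p = 0.845). Averaged over both genotypes, a contrast chosen after the data were seen, DHA gave a negative value for 9 of 9 members, with a median of -0.19. Mobp was the 1 member called there (log2 fold change -0.28, standard error 0.0894, unadjusted p = 0.00536, adjusted p = 1.0), beside 0.87% of all genes. Leaving out 1 mouse moved that count between 0 and 2, with 0 calls without WT vehicle replicate 1 or 4, WT DHA replicate 1 or 2, Tg2576 vehicle replicate 3 or 4 or Tg2576 DHA replicate 2. Mobp (unadjusted p = 0.00327, adjusted p = 0.77) and Mag (unadjusted p = 0.00973, adjusted p = 0.925) were called without Tg2576 vehicle replicate 1, beside 1.06% of all genes. Averaged over both treatments, the genotype called 0 members and 3.85% of all genes.

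**Figure D2:**
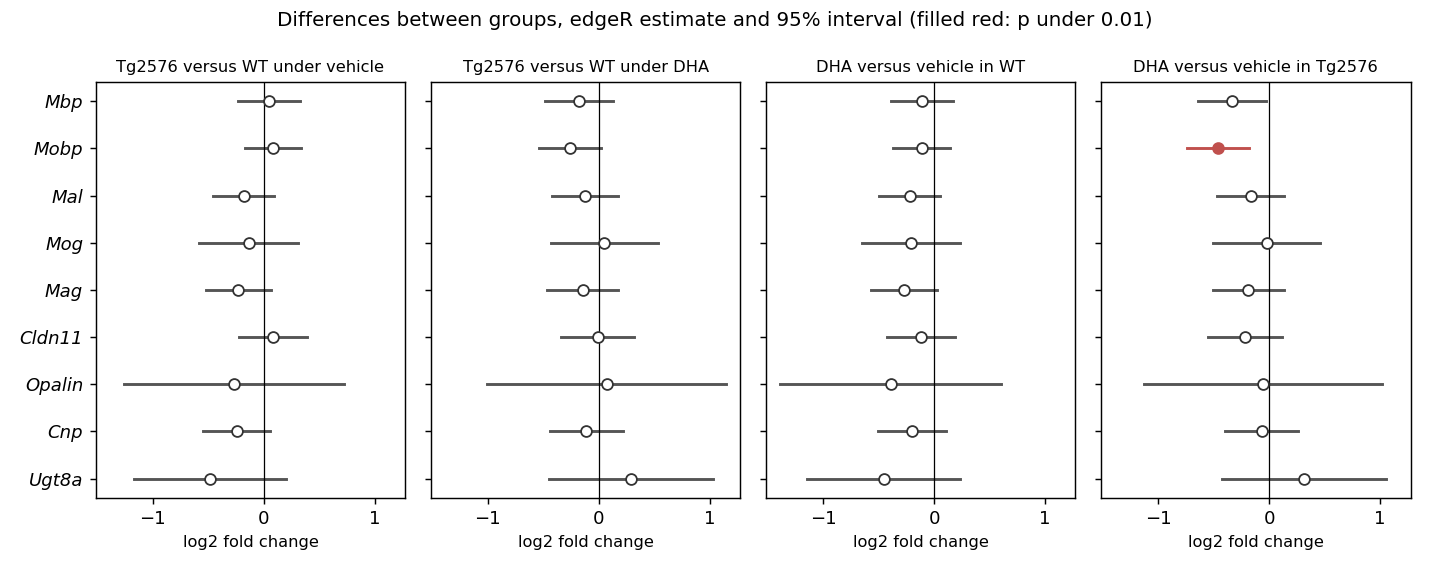
Log2 fold change (horizontal axis) of each myelin gene in the 4 comparisons of 2 groups, with the 95% interval of the edgeR fit as a line. Mobp between DHA and vehicle in Tg2576 mice (-0.46, from -0.73 to -0.18) is the only filled point, and the intervals of Opalin and Ugt8a are the widest.

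What the members shared was their movement among mice of the same group. The group mean was subtracted from the log2 CPM of each mouse. WT DHA replicates 3 and 4 were then above their group for 9 of 9 members, and replicate 1 below for 9 of 9. In Tg2576 DHA mice, replicate 2 was below the mean for 9 of 9 members and replicate 1 above it for 8, with Ugt8a as the exception (-0.0436). Tg2576 vehicle replicate 1 was below for 9 of 9. In WT vehicle mice the mean deviation over the members stayed between -0.0448 and 0.0786, a narrower range than in the other groups.

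**Figure D3:**
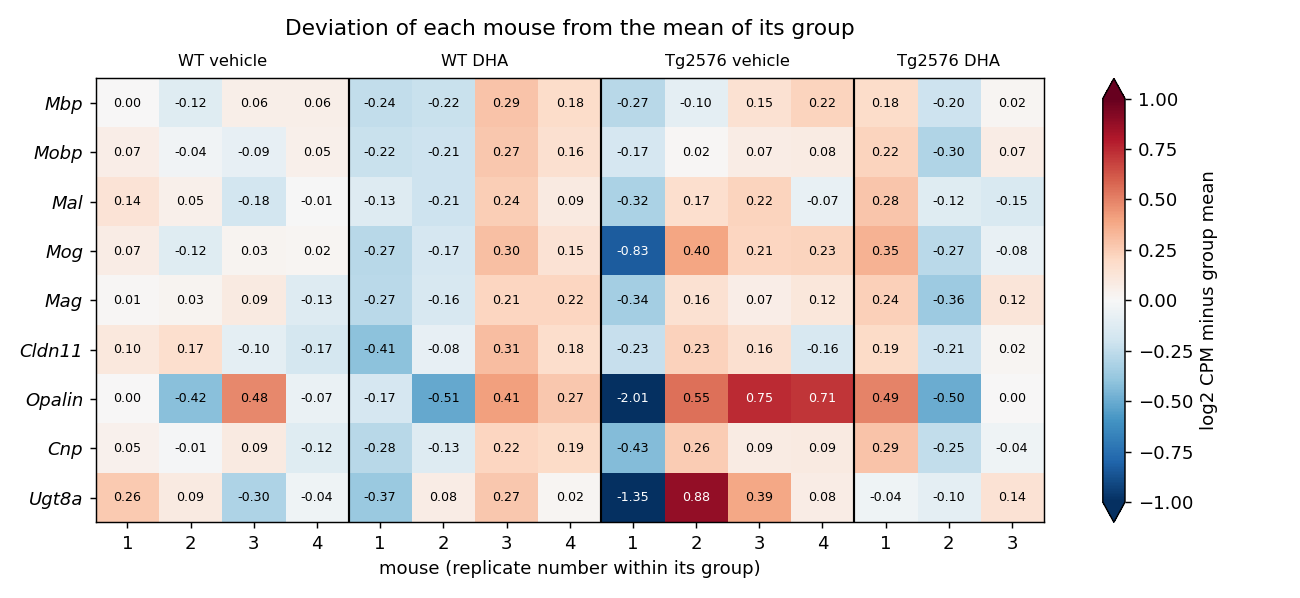
Log2 CPM of each myelin gene (rows) in each mouse (columns, by group and replicate) minus the mean of its group, with red above and blue below the mean and the colour scale ending at 1 in both directions. Whole columns share a colour, as in WT DHA replicate 3 (all 9 above) and Tg2576 vehicle replicate 1 (all 9 below, Opalin at -2.01).

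Over the 36 pairs of members, Pearson's r of these deviations ranged from 0.403 to 0.946 (median 0.76) and Spearman's rho from 0.357 to 0.957 (n = 15 mice). The points share library preparation and depth. By permutation of the mice within groups (100000 draws), 32 pairs had an adjusted p under 0.05 for r and 25 for rho. Mag and Cnp were most alike (r = 0.946, rho = 0.918, permutation p = 9e-05, adjusted p = 0.00324, and r = 0.933 without the 2 mice farthest from the median of Mag). Mog and Cnp followed with r = 0.94, and Mbp and Mobp, both of compact myelin, had r = 0.894. Mbp and Ugt8a were the least alike (r = 0.403, rho = 0.357, permutation p = 0.252, adjusted p = 0.252), and their r was -0.0537 without the 2 mice farthest from the median of Mbp.

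Without Tg2576 vehicle replicate 1, the range of r was -0.083 to 0.943 with a median of 0.746, but 8 pairs had an adjusted p under 0.05 for r and 1 for rho. The 28 pairs among the members other than Ugt8a kept r between 0.395 and 0.943 over the 14 mice. The 8 pairs with Ugt8a ranged from 0.403 to 0.834 with the mouse and from -0.083 to 0.746 without it. For example, Opalin and Ugt8a had r = 0.756 with the mouse and -0.083 without it, so that relation rests on 1 mouse. Mog and Cnp (0.943), Mag and Cnp (0.935) and Mbp and Mobp (0.888) changed little.

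**Figure D4:**
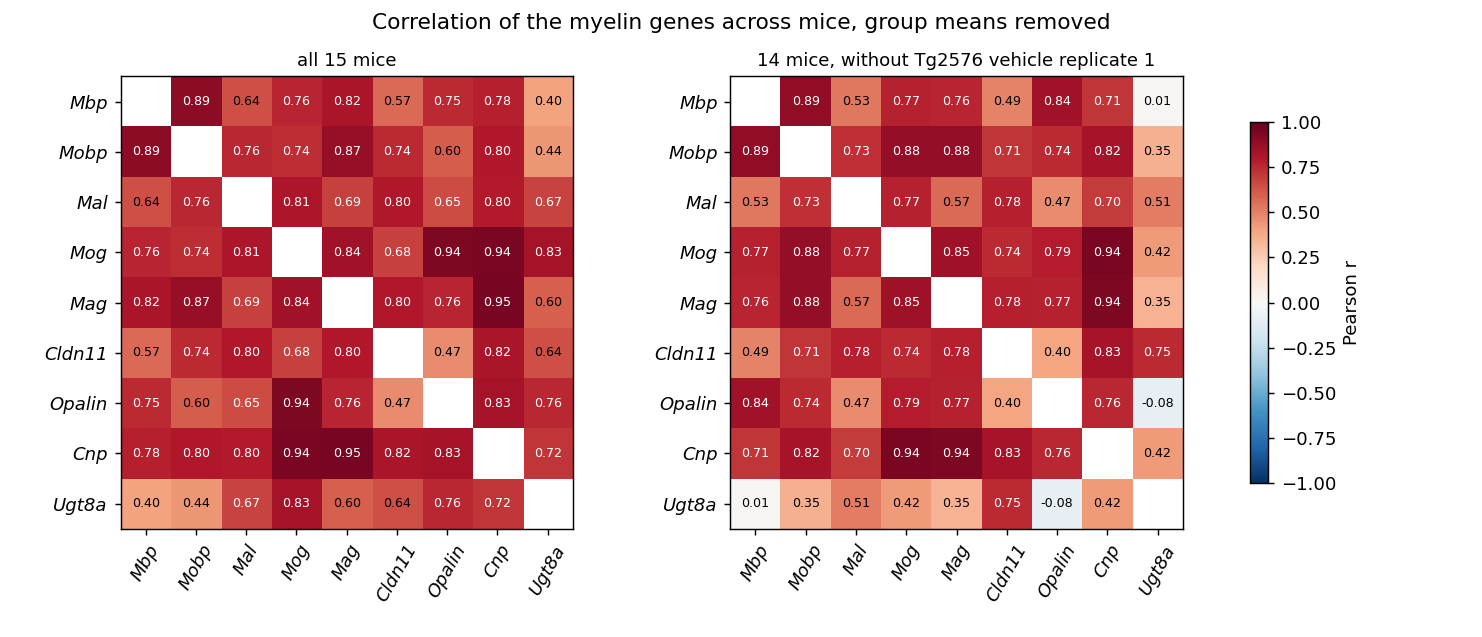
Pearson r between pairs of myelin genes after the group means were removed, over all 15 mice (left) and over the 14 mice other than Tg2576 vehicle replicate 1 (right), with each value printed in its cell. The row of Ugt8a pales on the right, where its r with Opalin is -0.083.

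The 5 genes outside the set whose deviations were most like the mean of the members were Car2 (r = 0.97, rho = 0.929), Cd9 (r = 0.962, rho = 0.893), Kcnk13 (r = 0.951, rho = 0.918), Cdc42ep1 (r = 0.946, rho = 0.879) and Fa2h (r = 0.945, rho = 0.879), over 15 mice. Without Tg2576 vehicle replicate 1 their r with the mean was 0.873 to 0.918. Car2 is a carbonic anhydrase, Cd9 a tetraspanin and Kcnk13 a potassium channel. Cdc42ep1 is an effector of the GTPase CDC42, and Fa2h is the enzyme that hydroxylates fatty acids. Car2 and Fa2h are also on the list of other mature oligodendrocyte genes used below. The median levels of the 5 genes ran from 9.63 CPM (Kcnk13) to 227 CPM (Car2).

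Tg2576 vehicle replicate 1 held the largest departures of single members. Opalin was 6.02 CPM in this mouse and 35.8 to 41.1 CPM in the other 3 of its group, a log2 difference of -2.68 that 0.41% of all genes tested fell below. Ugt8a was 11.3 CPM against 30.4 to 53.2 CPM, Mog 32.7 against 67.6 to 77.0 CPM and Cnp 287 against 411 to 463 CPM. These 4 members were below all other 14 mice. Mal, at 134 CPM, was level with the lowest of the others after rounding and just below it before. Mbp, Mobp, Mag and Cldn11 were also lowest in their group there but above the lowest of the other 14 mice, with log2 differences of -0.23 (Mobp) to -0.45 (Mag).

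The departure was therefore uneven within the mouse. Opalin counts were 0.177% of Mbp counts there and 0.612% to 1.21% in the other 14 mice. Ugt8a counts were 0.332% of Mbp counts against 0.631% to 1.38%, and Mog counts 0.96% against 1.42% to 2.04%. Mobp counts, at 28.1% of Mbp counts, lay within the 22.3% to 28.3% of the others.

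Of the 28 other mature oligodendrocyte genes, 14 were below and 2 above all other 14 mice in Tg2576 vehicle replicate 1, with a median log2 difference of -0.71 (members -0.45, all genes 0.00422). Sox10, the transcription factor of the oligodendrocyte lineage, was 45.0 CPM against 66.1 to 81.7 CPM in the rest of its group. In contrast, Hapln2, a link protein of the nodes of Ranvier, was 118 CPM against 51.7 to 70.6 CPM, and Anln 67.2 against 38.1 to 56.0 CPM. Myrf was 110 CPM, within the 82.2 to 125 CPM of the other 14 mice. These genes were named after their values were seen. Of the 12 precursor genes, 3 (C1ql1, Gpr17 and Olig2) were below and 2 (Cspg4 and Vcan) above all others in this mouse.

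**Figure D5:**
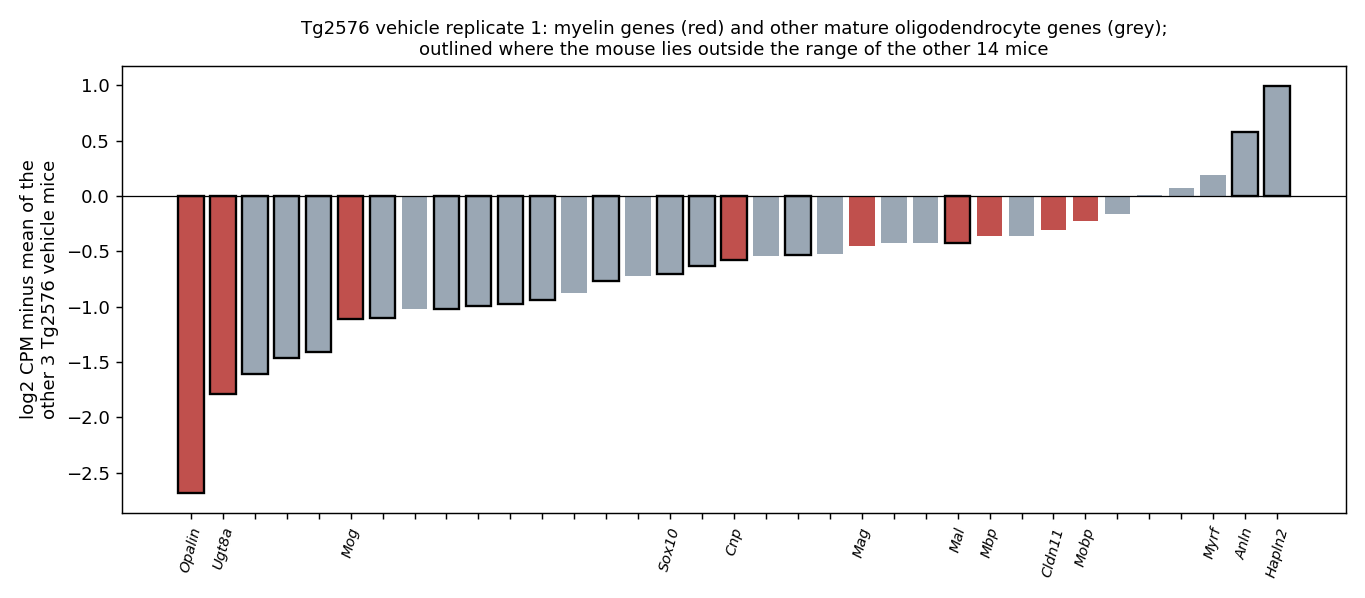
Log2 CPM of Tg2576 vehicle replicate 1 minus the mean of the other 3 Tg2576 vehicle mice (vertical axis) for the 9 myelin genes (red) and 26 other mature oligodendrocyte genes (grey, labelled for Sox10, Myrf, Anln and Hapln2), ordered by this difference. Outlined bars mark genes outside the range of the other 14 mice, from Opalin (-2.68) to Hapln2 (0.994).

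The other genes of mature oligodendrocytes were called in few comparisons. With DHA in WT mice, 28 of 28 had a negative log2 fold change (median -0.24) and 2 were called, both lower, beside 1.38% of all genes. Tspan2, a tetraspanin, had -0.29 (standard error 0.0889, unadjusted p = 0.00427, adjusted p = 0.6) and Gpr37, an orphan receptor, -0.42 (standard error 0.127, unadjusted p = 0.00447, adjusted p = 0.6). Myrf itself had -0.27 and unadjusted p = 0.0109 (adjusted p = 0.702), just outside. Without Tg2576 vehicle replicate 1, 4 were called, beside 1.61% of all genes in that fit. With DHA in Tg2576 mice 0 of 28 were called (median -0.05, and -0.22 without Tg2576 vehicle replicate 1). Between Tg2576 and WT mice under vehicle Gpr37 was lower (-0.52, standard error 0.127, unadjusted p = 0.0008, adjusted p = 0.17) and was the 1 gene called of 28, a share near the 3.09% of all genes. Under DHA, 0 were called.

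Lists on either side of myelination gave few calls. Of the 12 oligodendrocyte precursor genes and the 11 genes of galactolipid and long-chain lipid synthesis, 0 were called in any of the 5 comparisons, and medians lay between -0.13 and 0.07. Without Tg2576 vehicle replicate 1, the precursor gene Cspg4 was called lower in Tg2576 than WT mice under DHA. Of 7 genes that oligodendrocytes raise in disease models, Serpina3n, a serine protease inhibitor also made by astrocytes, was higher in Tg2576 than WT mice under vehicle (0.69, unadjusted p = 0.00119, adjusted p = 0.193). The astrocyte gene Gfap was higher in the same comparison (1.02, unadjusted p = 3.63e-05, adjusted p = 0.0766), with 543 to 670 CPM in WT and 830 to 1460 CPM in Tg2576 mice, and 2 of 10 astrocyte genes were called, Gfap higher and Slc4a4 lower. Klk6, a myelin-associated protease, was higher in Tg2576 than WT mice under DHA (1.17, unadjusted p = 0.00551, adjusted p = 0.554). Its levels were low, with means of 1.74 CPM in WT DHA and 3.92 CPM in Tg2576 DHA mice. Of 11 genes of the node and paranode, where axon and sheath join, Nrcam (-0.43, unadjusted p = 0.00296, adjusted p = 0.224) and Nfasc (-0.30, unadjusted p = 0.00661, adjusted p = 0.294) were lower in Tg2576 than WT mice under vehicle, and 11 of 11 had a negative value. Both are adhesion proteins that neurons also make. In the same comparison 3 of 12 neuronal genes were called, all lower, namely Nefm (-0.26), Gad1 (-0.28) and Gad2 (-0.42), with adjusted p of 0.224 to 0.323. The share of all genes called was 3.09%. Slc17a7 of the same list had -0.02 there. Under DHA it was the 1 neuronal gene called between genotypes, lower in Tg2576 mice (-0.32, unadjusted p = 0.00832, adjusted p = 0.56), beside 1.75% of all genes. Without Tg2576 vehicle replicate 1, 4 of the 11 node and paranode genes were called, beside 4.95% of all genes. Nrcam was among them, while Nfasc lost its call.

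Genes of other cell types moved beside the members. The summed level of the 10 microglial genes was 373 to 477 CPM in WT vehicle, 331 to 428 in WT DHA, 399 to 627 in Tg2576 vehicle and 430 to 640 in Tg2576 DHA mice. Tg2576 mice had higher levels than WT mice for each microglial gene called between genotypes. These were 1 of 10 without and 5 of 10 with DHA, beside 3.09% and 1.75% of all genes. Leaving out Tg2576 vehicle replicate 1 made these counts 3 and 6, all higher, beside 4.95% of all genes under vehicle. The summed level of the 12 pan-neuronal genes was 10760 to 12330 CPM in WT vehicle, 11040 to 12670 in WT DHA, 10280 to 11150 in Tg2576 vehicle and 9621 to 11070 in Tg2576 DHA mice. Every gene of both lists was above 0 in every mouse. The 8 endothelial and 8 striatum genes had 1 call each, both between genotypes under vehicle (Ly6c1 higher, Pde10a lower). Across the 15 mice with group means removed, the summed level of the 28 other mature oligodendrocyte genes had r = 0.983 with the members' mean (0.956 without Tg2576 vehicle replicate 1). The summed precursor genes had r = 0.949 (0.862 without it). That sum includes Bcas1 (120 to 220 CPM) and Olig1 (84.8 to 130 CPM), which oligodendrocytes of other stages also express. The 12 precursor genes went both ways in Tg2576 vehicle replicate 1 (median log2 difference -0.3 from the rest of their group). Pdgfra, Cspg4 and Vcan had 0.373, 0.38 and 0.528, and C1ql1, Gpr17 and Olig2 had -0.673, -1.09 and -0.911. Microglial genes had r = 0.741 (0.552 without that mouse), astrocyte genes -0.0788 (-0.116) and neuronal genes -0.509 (-0.608). These are descriptions, and the part of other cell types in the members' values was not tested.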

How the data were processed

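The authors aligned hippocampal reads with STAR 2.6.1c to GRCm38, after FastQC 0.11.8, and counted them with featureCounts 1.6.0 on GENCODE vM25, without a strand setting and with reads of several places or genes left out. The deposited values used here are these raw counts of 55401 genes per mouse. For the libraries, the paper names a TruSeq Stranded mRNA kit and the labels a SMARTER mRNA-Seq kit. Replicates are separate mice, and the file headers name 1 lane for all 15. Depth was 17372864 to 46596489 counts.

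Counts were analysed with edgeR 4.0.16 in R 4.3.3. Its filterByExpr (minimum count 10) kept 19536 genes, and TMM factors were 0.961 to 1.03. Differences were tested with edgeR's two-sided quasi-likelihood F test with robust dispersions (1 coefficient per group, 11 residual degrees of freedom) and Benjamini-Hochberg adjustment over all genes tested; unless another test is named, every p in the text is from this test. A gene was called when its unadjusted p was below 0.01, the paper's threshold. Log2 CPM have a prior count of 2. Single genes were also compared by exact permutation of log2 CPM, where 4 mice against 4 allow no p below 0.0286 and 4 against 3 none below 0.0571. Pairs of members were permuted 100000 times within groups, with adjustment over 36 pairs. The fit was tested on simulated data.

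The members, the 13 other gene lists and the tests were chosen with earlier results of these data known. The genes named are the members, the 5 genes most like their mean and at most 4 genes per other list, by lowest p; exceptions are marked, and some genes of the lists are not reported here by name. Symbols were matched for 55141 genes through GENCODE vM21, and promoter sequences are from RefSeq on GRCm38.p6. The main tests did not pair mice by the replicate numbers of the labels. The alternatives were DESeq2 1.42.0, limma-voom (limma 3.58.1), other scalings, filters and fits, the replicate block and each mouse left out; the length offset, the averaged contrasts, the fits of lists without 1 mouse, the non-overlap counts under other settings, and the pairs, coefficients of variation and list correlations without 1 mouse were added once the data had been seen. Tables and figures used Python 3.11.15 (numpy 2.4.6, pandas 2.3.3, scipy 1.17.1, matplotlib 3.10.9).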

Additional observations from a re-analysis of the deposited data

Results flagged for a closer look

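In groups of 4 mice, a mouse was marked where its gap to the nearest other mouse exceeded Dixon's 95% critical share of the group's range. Of 30 groups examined (9 members and their mean in 3 groups of 4 mice), 3 were marked, and chance marks about 1 in 20 groups. All 3 were Tg2576 vehicle replicate 1. Opalin was at 2.61 log2 CPM in this mouse (gap over range 0.928), Mog at 5.03 log2 CPM (0.849) and the mean of the 9 members at 6.96 log2 CPM (0.852). The 3 marks share 1 library and are not independent. This library also had the lowest depth of the series, 17372864 counts, whose part in these values was not tested.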

How the results depend on the processing

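The counts of members called were 0 for both genotype comparisons and the interaction under every alternative run. For DHA in Tg2576 mice the count was 1 under all alternatives that kept the 15 mice and 0 to 2 with a mouse left out, with 0 without Tg2576 DHA replicate 2 and 2 without Tg2576 vehicle replicate 1. For DHA in WT mice it was 0, except 1 (Ugt8a) in a fit of the 2 groups alone. The pairs of members with an adjusted p under 0.05 were 8 to 34 with each mouse left out (8 without Tg2576 vehicle replicate 1), against 32. Same-numbered mice did not deviate together over all genes (r over 0.1 in 4 of 21 pairings, median 0.0117). Such r cannot show whether the numbers mark a shared cage or day, which was not tested. With the replicate block, Mobp kept its call for DHA in Tg2576 mice (-0.43, unadjusted p = 0.00413, adjusted p = 1.0 by edgeR), and no count of calls changed. The block gave 0.042 for Mog and 0.090 for Opalin there.

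Of 45 log2 fold changes of members, 17 changed sign under some alternative, all uncalled (lowest p among the changed signs 0.547), and the cause was not tested. For DHA in Tg2576 mice, limma-voom gave 0.00470 for Mog and 0.12 for Opalin, and the length offset gave 0.016 for Mog. Cldn11 between genotypes under DHA was 0.00492 with limma-voom and 0.023 without TMM factors. With each mouse left out, the genotype difference under vehicle was -0.016 to 0.13 for Mbp, -0.26 to 0.071 for Mog and -0.43 to 0.071 for Opalin. Under DHA it was -0.14 to 0.18 for Mog, -0.27 to 0.013 for Mag, -0.13 to 0.10 for Cldn11, -0.21 to 0.29 for Opalin and -0.27 to 0.0038 for Cnp. The DHA difference was -0.23 to 0.013 for Cldn11 in WT mice and, in Tg2576 mice, -0.23 to 0.11 for Mog, -0.39 to 0.16 for Opalin and -0.22 to 0.052 for Cnp. The interaction was -0.10 to 0.14 for Mal, -0.020 to 0.31 for Mog, -0.048 to 0.23 for Mag, -0.23 to 0.013 for Cldn11 and -0.032 to 0.24 for Cnp. Depth was thinnest for Opalin, with 106 counts in its lowest library.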
